A study of Mus musculus with 8 samples.

Results

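The 10 genes described here are interferon-gamma (Ifng), the granzymes Gzma and Gzmb, perforin (Prf1), and the lymphocyte genes Nkg7, Il2rb, Klrd1, Klrk1, Eomes and Tbx21, 10 of the 55376 genes in a table of RNA-seq read counts. They were taken by name, and the list was selected on read counts of the same comparison, of which earlier results were known, so the differences between the treatments are descriptions and not independent evidence. The RNA came from mouse dendritic cells derived from bone marrow, which present antigen to T cells, after an overnight stimulation with killed bacteria. The cells of 3 samples received heat-inactivated Prevotella melaninogenica (PM) and those of 3 samples heat-inactivated Prevotella heparinolytica (PH). Every group thus received a bacterium, and no untreated cells are in the table. The samples are named by their sample ids as replicates 1, 3 and 4 of each treatment. The sources used here state neither the strain and age of the mice nor whether an id is an animal or a culture, so p-values measure a spread that may be technical in part.

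Interferon-gamma is the cytokine by which natural killer (NK) cells and T cells activate phagocytes and antigen-presenting cells, and interleukin-12, interleukin-15 and interleukin-18 are known inducers of it. Cytotoxic lymphocytes store granzymes and perforin in secretory granules, and perforin lets the proteases into the target cell. Several of these genes are not restricted to lymphocytes, and mouse mast cells and activated myeloid cells are known to transcribe some of them. In bulk RNA, fewer cells of a type and less RNA per cell cannot be told apart.

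Total counts lay between 21192990 and 38231719 in the PM samples and between 11624367 and 40233148 in the PH samples, with the lowest total in PH replicate 3. The columns of PM replicate 1 and PH replicate 3 each match 2 listed libraries by name, of run 1 and run 2. Of 11 dendritic cell markers 9 were tested, and 0 were called between the treatments by edgeR (2 had an unadjusted p under 0.05, and DESeq2 called 1). With the sample id as a block in the fit, Clec9a was higher and Irf4 lower with PM. Itgax, Flt3, Zbtb46, Cd74, H2-Ab1, H2-Aa, Clec9a, Irf4 and Batf3 were the tested ones, Xcr1 had too few counts, and Cd209a had 0 counts in each sample. All 11 summed to 5862 to 6938 CPM in PM samples and 5867 to 7173 CPM in PH samples. Most of that sum was Cd74, H2-Aa and H2-Ab1, so it says little about the other markers. CPM are read counts scaled to a common library size by the TMM factors of edgeR. The 10 genes together summed to 32.2 to 47.3 CPM in PM samples and 42.5 to 61.1 CPM in PH samples.

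The data fell into 3 patterns. Gzmb, Gzma and Ifng were lower in each PM sample than in each PH sample. Nkg7, Il2rb, Klrd1 and Eomes overlapped between the treatments and were lowest in the samples with id 1 of both treatments. Ifng was also lowest in id 1 of both treatments, although its treatments did not overlap. Klrk1 was nearly level in all samples, Tbx21 had few counts with no such order, and Prf1 was near the limit of detection.

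The promoters of the 3 genes whose treatments did not overlap are shown here for their sequence context, with that of Nkg7, whose window alone among the 8 examined held a motif of the T-box family, to which Eomes and Tbx21 belong. They are RefSeq windows of build GRCm38.p6, 250 bases before to 50 bases from the start of the gene, read on the gene's strand, and 8 of the 10 genes had one. Capitals mark matches, on either strand, to 4 motifs: the STAT motif GAS (TTCNNNGAA), the interferon response element ISRE (GAAA, any 2 bases, GAAA), the T-box motif (TCACACCT) and the Runx motif (TGTGGT). No 2 of the motifs overlapped in these 4 windows.
Gzmb, chr14:56262285-56262584, minus strand: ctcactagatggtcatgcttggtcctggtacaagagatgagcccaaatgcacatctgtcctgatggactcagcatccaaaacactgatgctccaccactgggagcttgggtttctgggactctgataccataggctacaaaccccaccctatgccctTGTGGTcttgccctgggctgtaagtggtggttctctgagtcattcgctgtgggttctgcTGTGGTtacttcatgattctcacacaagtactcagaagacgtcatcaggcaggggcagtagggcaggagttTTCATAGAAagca
Gzma, chr13:113100932-113101231, minus strand: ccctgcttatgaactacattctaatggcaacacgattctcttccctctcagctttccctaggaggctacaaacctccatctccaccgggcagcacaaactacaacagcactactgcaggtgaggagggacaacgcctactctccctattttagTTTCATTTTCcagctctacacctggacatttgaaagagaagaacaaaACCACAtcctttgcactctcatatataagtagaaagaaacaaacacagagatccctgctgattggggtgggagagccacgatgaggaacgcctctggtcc
Ifng, chr10:118440796-118441095, plus strand: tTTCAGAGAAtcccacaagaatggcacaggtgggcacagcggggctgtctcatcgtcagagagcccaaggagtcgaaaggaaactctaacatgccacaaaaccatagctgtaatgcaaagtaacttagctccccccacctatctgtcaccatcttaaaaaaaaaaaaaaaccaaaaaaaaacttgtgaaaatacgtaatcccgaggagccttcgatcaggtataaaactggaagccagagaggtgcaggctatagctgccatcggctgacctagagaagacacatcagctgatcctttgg
Nkg7, chr7:43436888-43437187, plus strand: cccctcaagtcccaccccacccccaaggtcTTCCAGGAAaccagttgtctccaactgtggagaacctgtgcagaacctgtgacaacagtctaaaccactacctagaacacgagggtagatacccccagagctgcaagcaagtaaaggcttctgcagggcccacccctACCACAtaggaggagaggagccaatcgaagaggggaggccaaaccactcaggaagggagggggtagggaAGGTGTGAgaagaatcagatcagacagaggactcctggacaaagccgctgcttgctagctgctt
With positions counted from 0 at the RefSeq start, Gzmb had Runx matches at -93 and -34 and a GAS match at 37. Gzma had an ISRE match at -97 and a Runx match at -50, both on the reverse strand. Ifng had a GAS match at -249, at the outer edge of its window. Nkg7 had a GAS match at -220, a Runx match at -83 and its T-box match at -14. Of the windows not shown, Prf1 had a Runx match at -130, Klrk1 a Runx match at -129 and Eomes an ISRE match at -154. GAS, ISRE and Runx matches thus also occurred in genes whose treatments overlapped. For Gzmb and Nkg7 the RefSeq start differs from that of the deposited table. The whole Gzmb window lies before the deposited gene, which ends at 56262260 on the minus strand. The Nkg7 T-box match lies inside the deposited gene, which starts at 43437073. Of 32851 RefSeq promoters of this length, 8.3% held GAS, 3.44% ISRE, 1.28% the T-box motif and 16.8% Runx. Matches of these letters describe the sequence and are not sites of binding.

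Ifng, the cytokine of the group, was a low-count gene. It lies on chromosome 10 (118441046 to 118445892, plus strand, GRCm38, in the deposited table) and had 3, 10 and 18 reads in PM replicates 1, 3 and 4, against 14, 12 and 38 reads in PH replicates 1, 3 and 4. Scaled by library these were 0.143, 0.333 and 0.462 CPM in PM samples and 0.574, 1.04 and 0.945 CPM in PH samples. The highest PM sample lay below the lowest PH sample, and the samples of id 1 were the lowest of both treatments. The level averaged 0.312 ± 0.160 CPM with PM and 0.851 ± 0.244 CPM with PH (SD, n = 3 each). The log2 fold change of PM over PH was -1.30 ± 0.40 (SE), with adjusted p = 0.182 in edgeR's quasi-likelihood test over all genes (Benjamini-Hochberg). With the sample id as a block it was -1.36 ± 0.36, with adjusted p = 0.00753, or 0.0513 in the blocked fit without id 3. Within ids, the PM level was 0.249 times the PH level for id 1 (exact counting interval, 95%, 0.0459 to 0.893), 0.321 times for id 3 and 0.488 times for id 4. Ifng passed the filter on low counts through 3 PH samples and 1 PM sample, and 20.6% of its exon bases are shared with the predicted gene Gm49751 on the same strand, so reads may have been split or lost there.

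Gzmb, the granule protease that cleaves caspases and other substrates after aspartate, had the highest level per exon length of the 10 genes, while Il2rb had more CPM on average. It lies on chromosome 14 (56258838 to 56262260, minus strand) and was at 8.78, 8.62 and 9.77 CPM in PM replicates 1, 3 and 4, against 15.3, 16.7 and 17.1 CPM in PH replicates 1, 3 and 4. All 3 PM samples were close together, and so were all 3 PH samples, with a gap between them wider than either spread. Gzmb averaged 9.06 ± 0.623 CPM with PM and 16.3 ± 0.952 CPM with PH (SD, n = 3 each). Its log2 fold change was -0.85 ± 0.09 (SE), which is 0.556 times the PH level, with adjusted p = 0.00282 in edgeR. Within ids the PM level was 0.576, 0.517 and 0.572 times the PH level for ids 1, 3 and 4. The adjusted p stayed between 0.00416 and 0.0291 when 1 sample was left out.

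Gzma, a granule protease of tryptase-like specificity, had about the same direction with a wider spread. Its gene lies on chromosome 13 (113093825 to 113100981, minus strand), and it was at 2.48, 2.03 and 2.92 CPM in PM replicates 1, 3 and 4, against 3.77, 5.52 and 6.27 CPM in PH replicates 1, 3 and 4. The treatments did not overlap, and PH replicate 1 was the lowest of the PH samples. Gzma averaged 2.48 ± 0.447 CPM with PM and 5.19 ± 1.28 CPM with PH (SD, n = 3 each). The log2 fold change was -1.06 ± 0.23 (SE), with adjusted p = 0.0522 in edgeR, just outside the threshold of 0.05. It passed with the sample id as a block (adjusted p = 5.27e-06), in DESeq2 (0.00145), with no low-count filter (4.22e-06) and without PH replicate 1 (0.0199). It did not pass without any other single sample (0.0731 to 0.247), with no TMM scaling (0.0662) or with the filter at 1 CPM (0.0555). Within ids the PM level was 0.658, 0.367 and 0.467 times the PH level for ids 1, 3 and 4.

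Prf1, the pore-forming protein that works with the granzymes, was close to absent. It had 7, 5 and 8 reads in PM replicates 1, 3 and 4 and 11, 3 and 11 reads in PH replicates 1, 3 and 4. At these counts the treatments overlapped, and Prf1 was the 1 member that did not pass the filter on low counts. Within ids the PM level of Prf1 was 0.740, 0.643 and 0.750 times the PH level for ids 1, 3 and 4, and each counting interval included 1. The mean difference of PM minus PH was -0.0927 CPM. A two-sided exact permutation test that ignored the ids gave p = 0.4, where the smallest possible p is 0.1 in this design. The exact counting interval of the PM to PH ratio within an id was as wide as 0.125 to 4.14, for id 3, so a difference of the size seen in Gzmb was not detectable at this depth.

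**Figure D1:**
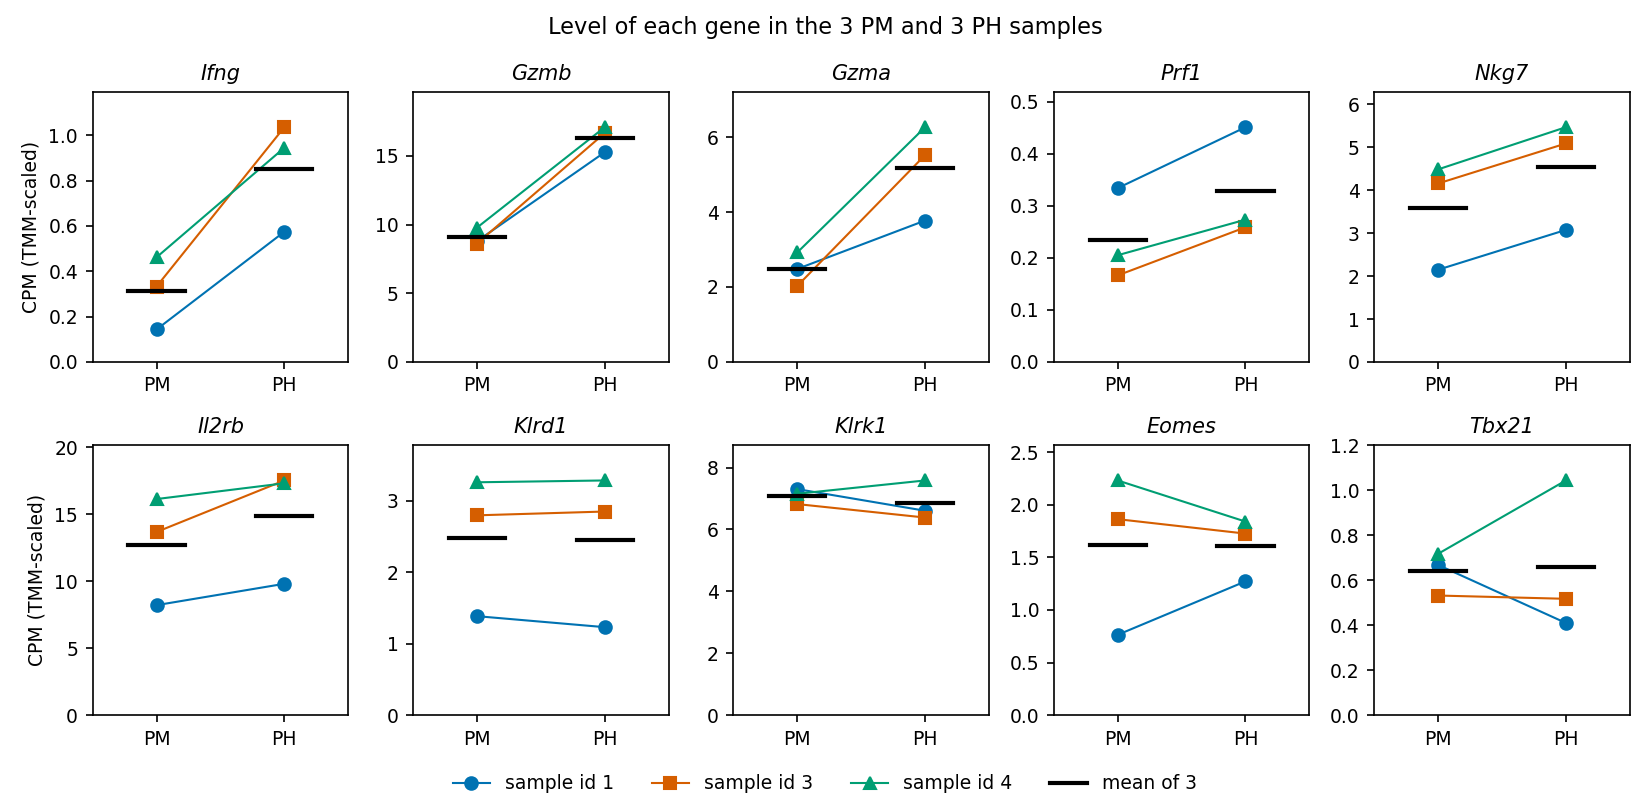
Level of each of the 10 genes in TMM-scaled CPM (y axes, each from 0) in the 3 PM and the 3 PH samples. Colours and symbols mark the sample id, lines join the PM and PH samples of an id, and black bars are means of 3 samples. Gzmb, Gzma and Ifng are lower in each PM sample than in each PH sample. Nkg7, Il2rb, Klrd1 and Eomes, and also Ifng, are lowest for id 1 in both treatments.

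Nkg7, a membrane protein of cytotoxic granules, overlapped between the treatments. It was at 2.15, 4.16 and 4.49 CPM in PM replicates 1, 3 and 4, against 3.08, 5.09 and 5.47 CPM in PH replicates 1, 3 and 4. The samples of id 1 were the lowest of both treatments, and within each id the PM sample was below the PH sample. The log2 fold change of PM over PH was -0.30 ± 0.30 (SE, adjusted p = 0.737 in edgeR), or -0.34 ± 0.14 with the block (adjusted p = 0.112).

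Il2rb, the beta chain shared by the receptors for interleukin-2 and interleukin-15, was at 8.21, 13.7 and 16.1 CPM in PM replicates 1, 3 and 4, against 9.80, 17.5 and 17.3 CPM in PH replicates 1, 3 and 4. Here too id 1 was lowest and the treatments overlapped. The log2 fold change of PM over PH was -0.20 ± 0.27 (SE, adjusted p = 0.817), or -0.22 ± 0.09 with the block (adjusted p = 0.0904), both in edgeR, with PM lower in 3 of 3 ids.

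Klrd1 encodes CD94, which pairs with NKG2 chains into receptors for the non-classical class I molecule Qa-1. It was at 1.38, 2.79 and 3.26 CPM in PM replicates 1, 3 and 4, against 1.23, 2.85 and 3.28 CPM in PH replicates 1, 3 and 4. The values of the 2 treatments nearly coincided within each id, and the ids stood apart. The log2 fold change of PM over PH was 0.05 ± 0.39 (SE) with an unadjusted 95% interval from -0.84 to 0.93, which the block narrowed to -0.34 to 0.38 around 0.02. Neither fit called it (adjusted p = 0.977 and 0.964 in edgeR). Klrk1, which encodes the activating receptor NKG2D, was at 7.30, 6.82 and 7.15 CPM in PM replicates 1, 3 and 4, against 6.60, 6.38 and 7.58 CPM in PH replicates 1, 3 and 4. Its 6 values spread least of the 10 genes relative to their level, and neither the treatments nor the ids stood apart. Its log2 fold change was 0.03 ± 0.11 (SE) with an interval from -0.23 to 0.29 (adjusted p = 0.998 in edgeR), which does not reach the log2 fold change of Gzmb.

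Eomes and Tbx21 encode the T-box transcription factors Eomesodermin and T-bet, which direct interferon-gamma and granzyme expression in lymphocytes. Eomes was at 0.764, 1.86 and 2.23 CPM in PM replicates 1, 3 and 4, against 1.27, 1.73 and 1.84 CPM in PH replicates 1, 3 and 4. PM replicate 1 was the lowest sample and PM replicate 4 the highest, so the PM values enclosed all PH values. Its log2 fold change was 0.06 ± 0.35 (SE, adjusted p = 0.968 in edgeR), and 3.20% of its exon bases are shared with Gm33460 on the opposite strand. Tbx21 had 14, 16 and 28 reads in PM replicates 1, 3 and 4 and 10, 6 and 42 reads in PH replicates 1, 3 and 4. PH replicate 4 was the highest and the treatments overlapped. Its log2 fold change was -0.16 ± 0.38 (SE, adjusted p = 0.905), with an interval from -1.02 to 0.69, so a change as large as that of Gzmb lay within the interval.

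**Figure D2:**
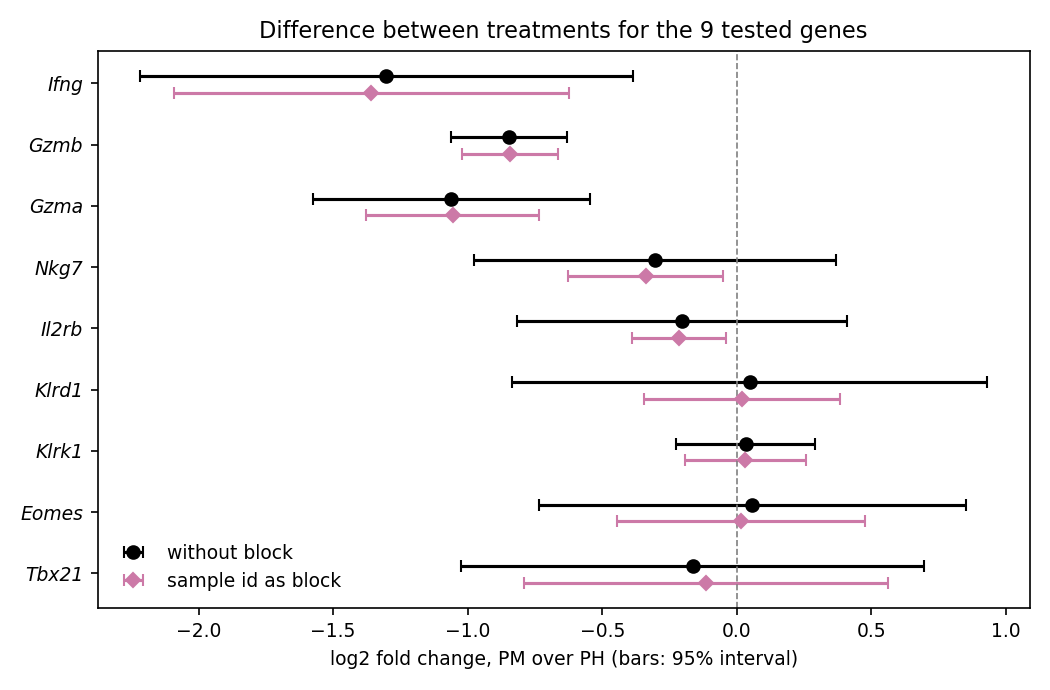
Log2 fold change of PM over PH (x axis) for the 9 tested genes, from edgeR without a block (circles) and with the sample id as a block (diamonds), with unadjusted 95% intervals. The intervals of Ifng, Gzmb and Gzma lie below 0 in both fits, and those of Nkg7 and Il2rb lie below 0 with the block alone, where their adjusted p did not pass.

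Of the 9 tested members, 1 was called between the treatments (Gzmb, lower with PM), which is 11.1%, against 2.34% of all 14382 tested genes (1.64% lower and 0.702% higher with PM). With the block 3 were called, all lower, against 15.3% of all genes (8.27% lower and 7% higher). The 3 genes that were lower in each PM sample than in each PH sample compare with 9.28% of all genes in that direction, while 10.1% of all genes were higher in each PM sample. These shares are given as background and nothing is read from them, since the list was made with this contrast known. The median log2 fold change was -0.20 over the 9 tested members and 0.01 over all tested genes.

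The differences between sample ids are descriptions too, since the list was chosen with earlier results of these data known. They were tested in the edgeR model with treatment and sample id, by a joint test of the id terms over all genes, a test added after the values were seen. The id terms passed for 4 of 9 tested members and for 18.9% of all tested genes. Il2rb (adjusted p = 2.89e-07), Klrd1 (1.57e-04), Nkg7 (4.40e-04) and Eomes (0.0317) were called, each higher in ids 3 and 4 than in id 1. The log2 fold changes of id 3 and id 4 over id 1 were 1.10 and 1.32 for Klrd1, 0.83 and 0.93 for Nkg7, 0.77 and 0.89 for Il2rb, and 0.81 and 0.97 for Eomes. In each treatment by itself id 1 was the lowest for these 4 genes, while ids 3 and 4 of Il2rb with PH were at 17.5 and 17.3 CPM. The mean of ids 3 and 4 was 2.19 times the id 1 level of Klrd1 with PM and 2.49 times with PH, and 1.81 times that of Il2rb with PM and 1.78 times with PH. Gzmb had log2 fold changes of 0.05 and 0.16 over id 1 and was not called (adjusted p = 0.502), nor was Klrk1 (0.715). Gzma (0.0766), Ifng (0.250) and Tbx21 (0.274) did not pass either, although Ifng had log2 fold changes of 0.86 and 0.98 over id 1. Without both samples of id 1, 0 members were called by edgeR (adjusted p 0.375 or higher), and Eomes was not called without PM replicate 1 (0.473), PM replicate 4 (0.0976) or PH replicate 3 (0.0754). Gzma passed without PM replicate 1 (0.00620) and without id 3 (0.0447).

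The 18 T cell markers together summed to 378, 416 and 422 CPM in PM replicates 1, 3 and 4, against 328, 317 and 328 CPM in PH replicates 1, 3 and 4, so the sum was lowest in id 1 with PM and not with PH. Most of that sum was Il7r. By gene, Cd28 and Lat were not lowest in id 1 with either treatment, Cd247 and Il7r were lowest there with PM and not with PH, and the other T cell markers were lowest in id 1 with both. The 6 genes of CD3 chains and T cell receptor constant regions (Cd3d, Cd3e, Cd3g, Trac, Trbc1 and Trbc2), which were singled out after their values were seen, summed to 11.4, 19.9 and 21.3 CPM in PM replicates 1, 3 and 4, against 13.7, 21.7 and 22.4 CPM in PH replicates 1, 3 and 4. All but Trac (0.166) passed the id test, with adjusted p between 0.00121 and 0.0234 in edgeR, and none of the 6 differed between treatments in edgeR (adjusted p 0.851 or higher). Of all 18 T cell markers, 9 passed the id test. The B cell genes Cd79a, Cd79b, Ms4a1 and Pax5 passed it in the other direction, highest in id 1 of both treatments, with log2 fold changes of id 3 over id 1 between -1.17 and -0.90 and adjusted p between 1.09e-04 and 0.00376 in edgeR. Of the 9 NK cell markers 4 were tested and 1, the chemokine gene Xcl1, passed the id test. Ncr1, the defining NK receptor gene, had 1 to 3 reads in each PM sample and 1 to 3 in each PH sample, and Klrb1c had 3 to 9 and 2 to 11. Of the macrophage markers 3 of 4 passed the id test, with sums of 1693, 1210 and 1234 CPM in PM replicates 1, 3 and 4, against 1525, 1065 and 1183 CPM in PH replicates 1, 3 and 4. Of the other markers 6 of 9 tested dendritic, 3 of 9 mast cell and basophil, 3 of 7 neutrophil and 0 of 5 plasmacytoid ones passed it. The part of any of these cell types in the levels of the 10 genes was not tested.

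**Figure D3:**
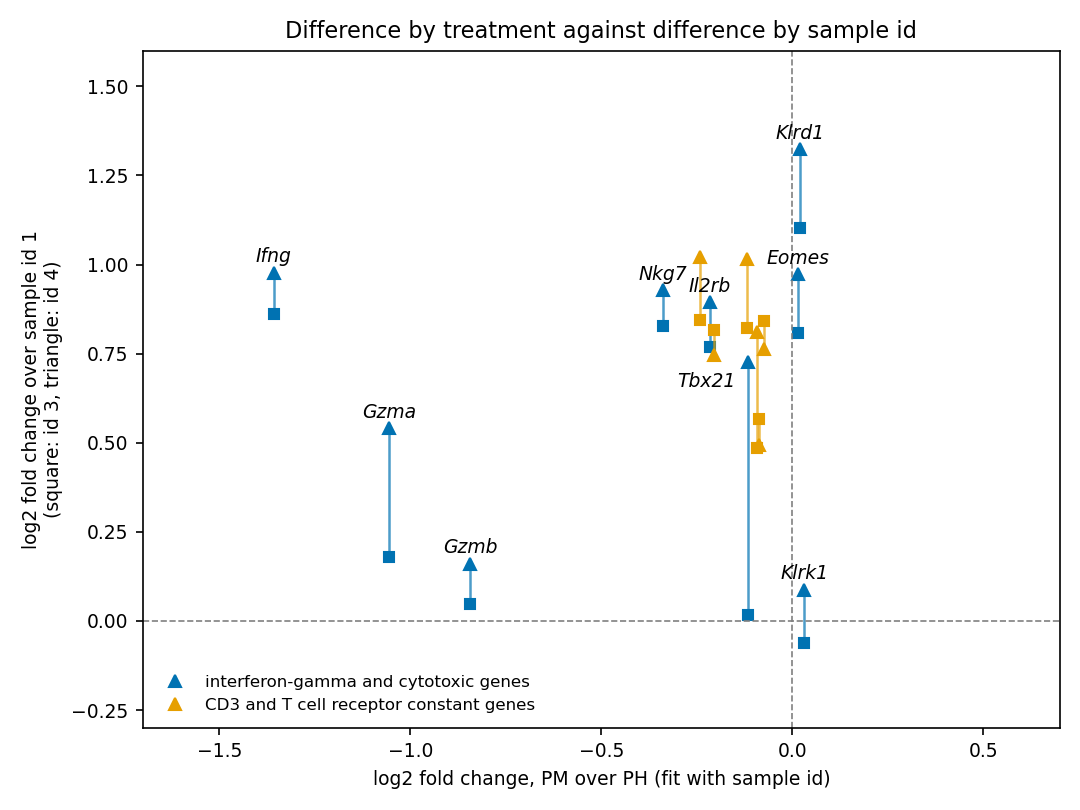
Log2 fold change of PM over PH (x axis) against the log2 fold change over sample id 1 (y axis, squares for id 3 and triangles for id 4), both from edgeR's fit with treatment and sample id. Gzmb and Gzma lie to the left with smaller id differences, and Ifng lies furthest to the left with id differences of 0.86 and 0.98. Klrd1, Eomes, Nkg7 and Il2rb lie higher and nearer 0 on the x axis beside the CD3 and T cell receptor genes (orange). The orange genes were singled out after their values were seen. The other T cell markers, of which Cd28 and Lat were not lowest in id 1, and the B cell genes are not drawn. Klrk1 lies near 0 on both.

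Genes listed as markers of other cells differed between the treatments in a few cases, and which cells their reads came from was not tested. The T cell markers summed to 378 to 422 CPM in PM samples and 317 to 328 CPM in PH samples, a sum in which Il7r held 332 CPM on average with PM and 253 CPM with PH. Of the 18, Cd28 and Il7r were higher with PM and Cd247 was lower, at 5.11 ± 0.977 CPM with PM and 10.8 ± 0.344 CPM with PH (SD, n = 3 each, adjusted p = 0.00651 in edgeR). Cd247 encodes the zeta chain that signals for T cell and NK receptors, but 64.0% of its exon bases are shared with Pou2f1 on the opposite strand, so its reads are uncertain. NK cell markers summed to 8.83 to 10.3 CPM with PM and 8.74 to 10.8 CPM with PH, and 0 of 4 tested passed in edgeR (0 at an unadjusted p under 0.05 and 0 in DESeq2). Mast cell and basophil markers summed to 157 to 175 CPM with PM and 172 to 183 CPM with PH, and 1 of 9 tested was lower with PM, Hdc, the histamine-forming enzyme (-0.73 ± 0.11 SE). Of these mast cell and basophil genes, Cpa3, Mcpt8, Kit, Hdc and Prss34 were each above 20 CPM in all 6 samples. Gata2, Ms4a2 and Fcer1a were below 20 CPM in all 6. Tpsb2 had 5 to 16 reads per sample and Mcpt4 0 to 11. Plasmacytoid markers summed to 215 to 227 CPM with PM and 304 to 326 CPM with PH, almost all of it Bst2 and Tcf4. Of 5 tested, 1 was lower with PM in edgeR, Bst2, while Ccr9, Ly6d and Pacsin1 differed in direction between ids. Siglech had 1 read in all 6 samples together. Neutrophil markers summed to 321 to 445 CPM with PM and 433 to 530 CPM with PH, with 1 of 7 lower (Csf3r), and of 4 macrophage markers 0 passed in edgeR (2 had an unadjusted p under 0.05, and DESeq2 called 1). With the block, Cd68 was higher with PM, at 390 ± 54.4 CPM with PM and 286 ± 31.8 CPM with PH (SD, n = 3 each, adjusted p = 6.16e-09 in edgeR). The block also called Lat higher, and S100a8, S100a9 and Tcf4 lower, with PM. The part of these cells in the lower granzyme levels was not tested.

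Ranked by level per exon length, in RPKM (CPM divided by exon length in kilobases) averaged over all 6 samples, Gzmb came first at 8.84 and Nkg7 (4.62), Gzma (3.81), Il2rb (3.21), Klrd1 (2.55) and Klrk1 (2.03) followed. Ifng (0.482), Eomes (0.438), Tbx21 (0.261) and Prf1 (0.109) were lower. The ranges over samples were apart between Klrk1 and Ifng alone among these neighbours. Gzmb was above Nkg7 in 6 of 6 samples, although the ranges met, and Nkg7 was above Gzma in 3 of 6. Of all tested genes, 59.4% had a lower RPKM than Gzmb, 13.3% a lower one than Ifng and 1.75% a lower one than Prf1.

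**Figure D4:**
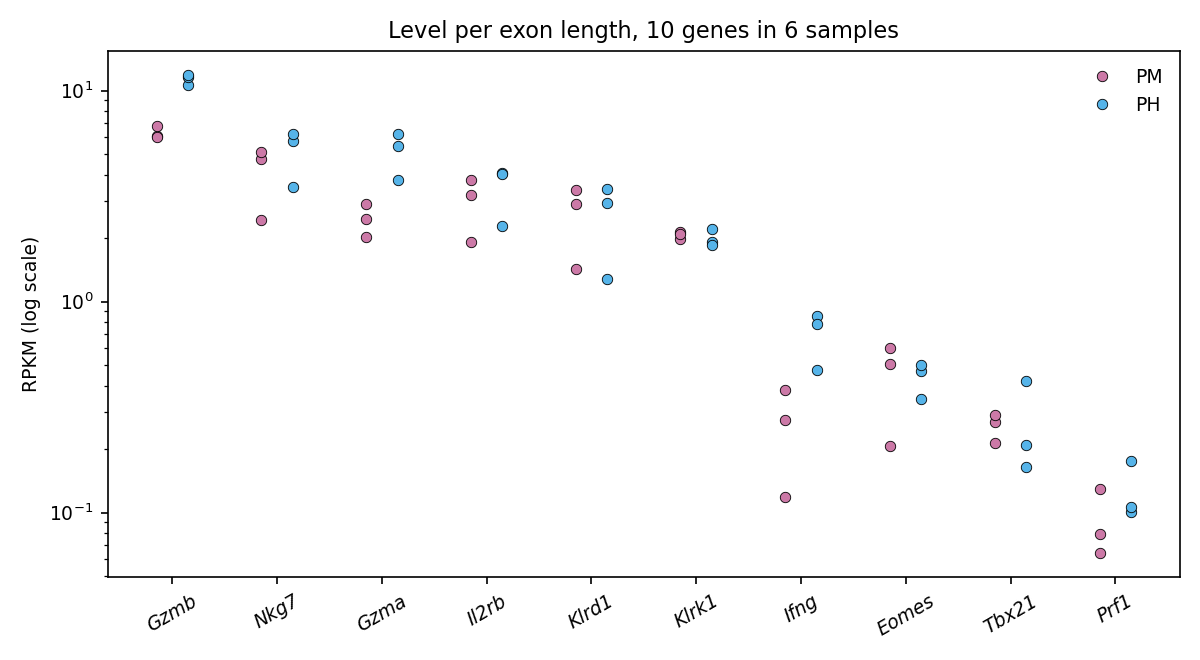
Level per exon length in RPKM (y axis, log scale) of the 10 genes in the 3 PM (left) and 3 PH (right) samples, ordered by the mean over all 6. Prf1, Tbx21, Eomes and Ifng form a lower group, and Gzmb is the highest gene in each treatment.

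Of 14 listed genes of the interferon-gamma receptor, its signalling and its targets, 7 were lower with PM and 0 higher (11 lower with the block), and the median over the list was -0.41 on the log2 scale. Among them were the transcription factor Irf1 at -0.54 ± 0.09 (SE), the GTPase Irgm1 at -1.19 ± 0.10 and the chemokine Cxcl9 at -2.36 ± 0.21, with Gbp2, Igtp and Nlrc5. Irf1 shares 18.5% of its exon bases with Gm17334 on the opposite strand. The receptor chains Ifngr1 and Ifngr2 were not called, with log2 fold changes of -0.05 ± 0.07 and -0.02 ± 0.05 (adjusted p = 0.833 and 0.941 in edgeR). These targets also respond to type I interferon. As background for this list and those that follow, 1.64% of all tested genes were lower with PM, or 8.27% with the block.

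Of 20 listed cytokines, receptors and STAT factors that drive interferon-gamma production, 18 were tested, 3 fell and 0 rose, with a median of -0.17. These were Il15ra, which presents interleukin-15 to cells that carry Il2rb, at 42.7 ± 4.76 CPM with PM and 58.6 ± 1.90 CPM with PH (SD, n = 3 each, -0.45 ± 0.08 SE, adjusted p = 0.0288 in edgeR), with Ebi3 and Il23a. With the block 9 were lower, and the other 6 were Il12a, Il12b, Il15, Il27, Il2ra and Stat5a. Il21 had 0 counts.

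Of 23 other granule and killing genes, 17 were tested, 1 fell and 0 rose, with a median of -0.16. The 1 was Ctsc, the peptidase that activates granzymes by trimming their pro-peptide, at 350 ± 11.6 CPM with PM and 531 ± 32.8 CPM with PH (SD, n = 3 each, -0.60 ± 0.07 SE, adjusted p = 0.00363 in edgeR). With the block 6 were lower and 1 was higher. The additional ones that were lower, named after their values were seen, were the granule proteoglycan Srgn, the granzyme B inhibitor Serpinb9, the serpin Serpinb6b, the cystatin Cst7 and the granzyme Gzmc, while Lamp1, a lysosomal membrane protein, was higher. Gzmc was at 4.02 ± 0.542 CPM with PM and 5.95 ± 0.272 CPM with PH (SD, n = 3 each), with adjusted p = 0.0947 in edgeR, or 0.00308 with the block. Gzmd, Gzme, Gzmf, Gzmg, Gzmk and Gzmn did not pass the filter on low counts. Near-identical granzyme sequences could have split or lost reads in counting, so their values are uncertain.

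Of 23 other NK receptors, adaptors and ligands, 19 were in the table under these names and 14 were tested, and 0 passed in edgeR, with 2 at an unadjusted p under 0.05 and 1 passing in DESeq2. Their median was 0.05. With the block 2 were higher, Cd244a (adjusted p = 0.0235 in edgeR) and the adaptor Tyrobp (6.22e-04), and 1 was lower, H2-T23, which encodes the Qa-1 ligand of the Klrd1 receptors, at 347 ± 20.7 CPM with PM and 429 ± 21.0 CPM with PH (SD, n = 3 each). Of 16 other lymphocyte transcription factors, 14 were tested and 0 passed in edgeR, with 1 at an unadjusted p under 0.05 and 1 in DESeq2, and a median of -0.02. With the block Tcf7 was higher and Prdm1 lower. These 2 of 14, and the 3 of 14 NK receptor genes, compare with 15.3% of all tested genes called with the block. Nothing is read from these counts.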

How the data were processed

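RNA-seq read counts of 3 PM and 3 PH samples were analysed. The deposited table holds whole-number counts per gene, not normalized by the authors; Trimmomatic, STAR 2.5.3a, featureCounts 1.6.4 and build GRCm38 are named per the submitters' processing notes. The libraries marked strand per the labels' protocols, but the strand setting of the counting, and whether the 2 columns with a second run hold 1 run or both, stay unstated in the sources used here. Exon lengths and coordinates are those of the deposited table, per the file headers.

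The filter filterByExpr (minimum count 10) left 14382 genes. PM was tested against PH, with no covariate, by the robust quasi-likelihood test of edgeR 4.0.16 in R 4.3.3, with TMM scaling and Benjamini-Hochberg adjustment over all genes (threshold 0.05). Standard errors were derived from the F value. DESeq2 1.42.0, other filters and scaling, left-out samples and a block on the sample id were alternatives. Deviations from the treatment means were taken in log2 CPM (prior count 2). They correlated at 0.44, 0.32 and 0.24 between PM and PH samples of ids 1, 3 and 4. Between other ids the correlations were -0.35 to 0.07. From these data and not the labels, the block and the ratios within ids treat samples of 1 id as pairs. The fit without the block ignores this pairing and called 337 genes, against 2197 with the block. No 2 columns agreed within sampling noise (chi-square per degree of freedom at least 4.99). The fit was tested on simulated counts. All 10 members are named. From each list of functions the genes that pass are named, at most 6 by size. Some listed genes are not reported here. Members and lists were chosen with earlier results of these data known. Intervals on counts cover counting error only.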

Additional observations from a re-analysis of the deposited data

How the results depend on the processing

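Gzmb kept its direction and its call in each of the 14 alternatives run. Gzma and Ifng kept their direction in each alternative that tested them. For Gzmb, Gzma and Ifng each PM sample lay below each PH sample in CPM. Leaving out samples or ids thus could hardly turn their direction, and nothing is read from its staying the same. Against 337 genes and 1 member, the replicate block on ids called 2197 genes, 3 members, 11 interferon-gamma response genes, 9 inducers of Ifng, 7 granule genes, 3 NK receptor genes and 2 transcription factors. DESeq2 called 574 genes, 2 members, 5 inducers, 4 granule genes, 1 NK receptor gene and 1 transcription factor. With no low-count filter these numbers were 846, 3, 6, 4, 1 and 1. Leaving out 1 sample, or both samples of an id in the blocked fit, gave 142 to 2145 genes, 1 to 3 members, 6 to 11 response genes, 2 to 10 inducers, 1 to 8 granule genes, 0 to 3 NK receptor genes and 0 to 3 transcription factors. Without the block, 208 genes were called without PH replicate 3, 142 without PH replicate 4, 174 without PM replicate 3 and 146 without PM replicate 4. The filter at 1 CPM did not test Ifng. The id test, also run without single samples or ids, called 525 to 3540 genes and 0 to 5 members, with 525 and 0 without id 1 and 1686 genes without PH replicate 3. Without 1 sample or id, log2 fold changes near 0 turned sign, none of them past the threshold. They ranged from -0.45 to 0.0077 for Il2rb, -0.30 to 0.43 for Klrd1, -0.033 to 0.12 for Klrk1, -0.26 to 0.34 for Eomes and -0.45 to 0.51 for Tbx21. The cause was not tested. Depth limits Prf1, Tbx21 and Ifng most, since each had a sample with fewer than 10 reads.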
